A study of Mus musculus with 15 samples.

Results

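The genes described here encode carriers that move hormones, vitamins and organic ions across cell membranes: the organic anion transporting polypeptides (Slco genes) and 13 families of solute carriers (Slc10, Slc13, Slc19, Slc22, Slc23, Slc27, Slc28, Slc29, Slc33, Slc44, Slc46, Slc47 and Slc52). They were chosen by gene symbol alone, with no measured value. The rule found 126 of the 34958 probe sets that carried exactly 1 gene symbol, and these stood for 73 of 18194 genes. Of the 73 genes, 37 had 1 probe set and 36 had several. The 2 largest groups were the Slc22 family with 21 genes and the Slco family with 15.

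Retinal vessels form a blood-retina barrier, and the endothelial cells of such a barrier are joined by tight junctions that stop solutes from passing between them. What the neural tissue needs from the blood therefore crosses the endothelial cell on carriers, and what must be kept out is exported by others. In brain capillaries, thyroxine enters on Slco1c1, organic anions are handled by Slco1a4 and Slc22a8, thiamine and folate use Slc19 proteins, and riboflavin uses Slc52 proteins. The barrier state of the endothelium is known to need Norrin, a ligand made by Müller glia, which acts on endothelial cells through the receptor Frizzled4, the coreceptor Lrp5 and beta-catenin.

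Gene expression was measured on Affymetrix mouse arrays in adult retinal endothelial cells purified with beads against PECAM, a surface protein of endothelium. The groups were Fz4-/- (no Frizzled4 receptor, 3 arrays), Lrp5-/- (no Lrp5 coreceptor, 3 arrays), Norrin- (no Norrin ligand, 3 arrays, written as Norrin KO) and wild type (6 arrays), all on a mixed C57Bl6/129 background. Each array held the RNA of a pool of 5 to 10 mice, so that p-values measure the spread between pools. The labels name no conditional allele, and the losses are not limited to endothelial cells.

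Values are log2 signals, so that a difference of 1 is a doubling of the signal. All 15 arrays had medians of 5.88 to 6.04. Fzd4 had 3.98 to 4.56 in Fz4-/- against 11.80 to 12.27 in wild type, and Lrp5 had 4.40 to 5.25 in Lrp5-/- against 7.22 to 7.95 in wild type. Ndp, which encodes Norrin, had 3.88 to 4.35 in Norrin KO and 4.28 to 4.81 in wild type, and as a gene of Müller glia it did not check that label. The arrays Lrp5-/- 1, Lrp5-/- 3 and wild type 4 stood apart from the rest in earlier work on these data. The labels call every pool mixed in gender, but Xist was under 6 and the Y gene Eif2s3y above 9 on all 3 Norrin KO arrays, Lrp5-/- 1 and 2 and wild type 4 and 5. Xist was above 11 and Eif2s3y under 4 on Fz4-/- 3, Lrp5-/- 3 and wild type 3 and 6, and both were above 9 on the other 4 arrays. The sexes were thus not balanced between Norrin KO and the other groups, and their part in the Norrin KO results was not tested beyond the values given with the differences between mutants. The gap between the 3′ and 5′ actin controls was 2.92 on Norrin KO 1 and 0.56 to 1.46 on the rest. With 3 arrays a mutant, the precision is limited by their number.

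Over the mean of the 3 mutants, 13 of the 73 carriers rose (17.8%, against 14% of all genes) and 11 fell (15.1%, against 9.91% of all genes) at an adjusted p under 0.05 in limma. The falls held the larger changes: the thyroxine carrier Slco1c1 changed by −6.10, the thiamine carrier Slc19a3 by −5.66 and the organic anion carrier Slc22a8 by −5.62. The rise of largest size was that of the prostaglandin carrier Slco2a1, by 4.33. The median change over the carriers was −0.08, against −0.01 over all genes. Past the threshold, 8 carriers rose and 8 fell by at least 1 (11% of the 73 each way), against 5.14% and 2.57% of all genes. On all 9 mutant arrays, 8 carriers (11%, against 3.53% of all genes) lay below every wild-type array, and 4 (5.48%, against 4.76%) lay above every one.

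By single mutant, 12 carriers rose and 10 fell in Fz4-/- (16.4% and 13.7%, against 10.7% and 6.08% of all genes). In Lrp5-/- 4 rose and 9 fell (5.48% and 12.3%, against 5.63% and 7.27%). In Norrin KO 12 rose and 12 fell (16.4% each, against 16.7% and 9.13%). The 3 comparisons share the 6 wild-type arrays. In all 3 mutants 11 carriers passed: Slco1a4, Slco1c1, Slco2b1, Slc19a1, Slc19a3, Slc22a8, Slc46a3 and Slc52a3 fell, and Slco2a1, Slc23a2 and Slc44a2 rose. These are 11% lower and 4.11% higher of the carriers, against 3.08% and 4.49% of all genes. Another 8 passed in 2 mutants and 10 in 1 (11% and 13.7%, against 7% and 18.7% of all genes), and the remaining 44 in none (60.3%, against 66.7%). Lrp5-/- 1, 2 and 3 deviated from their mean together with wild type 4, 5 and 6 from the mean of those arrays. The r values were 0.65, 0.51 and 0.29 across genes, which are not independent replicates. Among pairs not matched, Lrp5-/- 2 with wild type 6 had 0.25 and Lrp5-/- 3 with wild type 5 had 0.21, close to the third matched pair. The other pairs not matched had negative values. A block then matched Lrp5-/- 1 to 3 with wild type 4 to 6, and Fz4-/- 1 to 3 with wild type 1 to 3. With it Lrp5-/- had 7 carriers higher and 10 lower. Of all genes 17.4% passed in either direction, against 12.9% without the block. Slc22a15, Slc27a3 and Slc29a1 then rose and Slc10a1 fell in Lrp5-/-. The labelled cells were bulk samples, in which fewer cells of a type and less RNA per cell cannot be told apart.

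**Figure D1:**
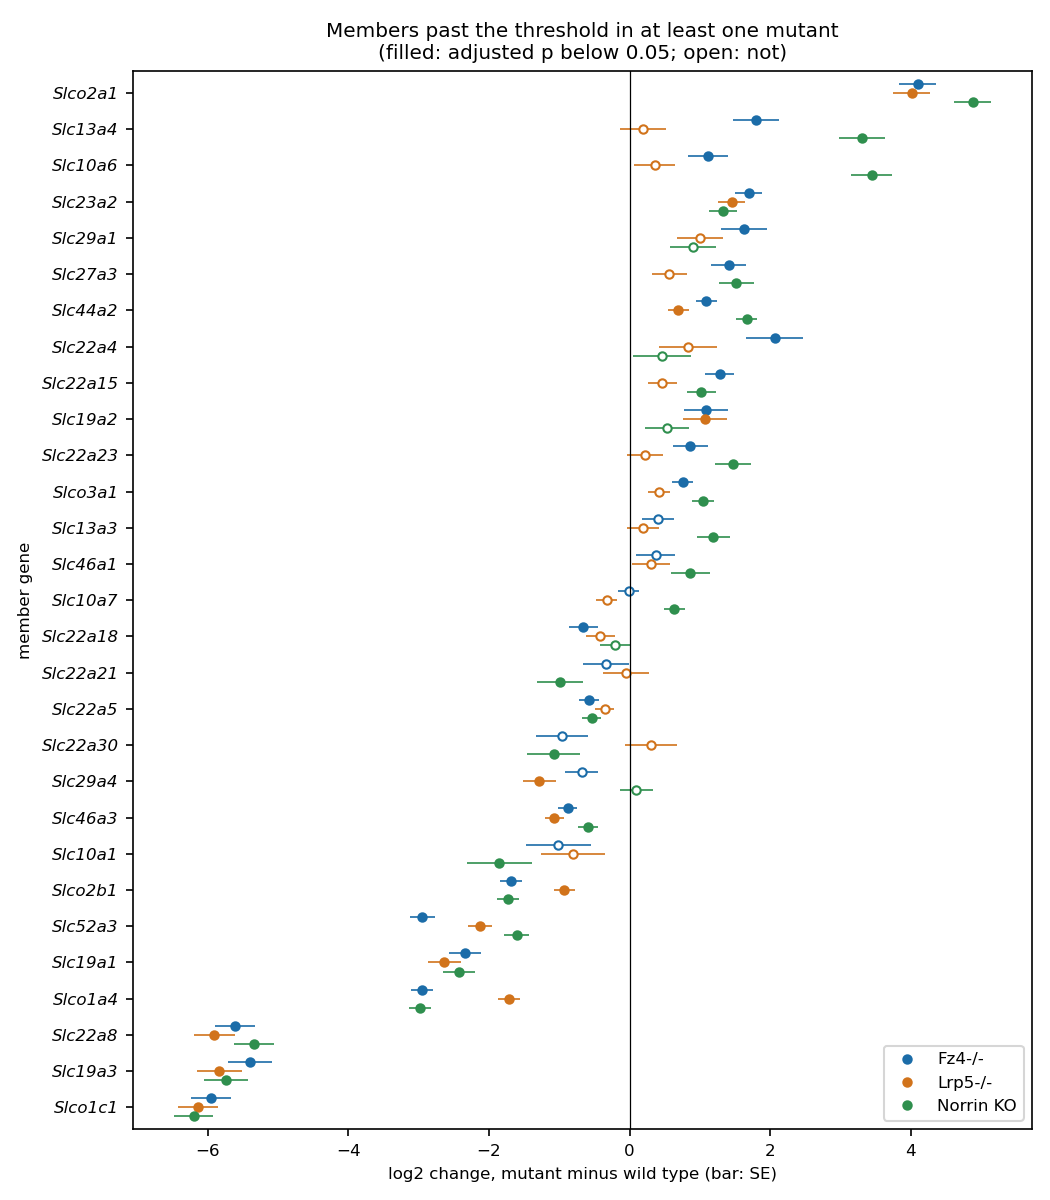
Log2 change (x axis, mutant minus wild type, bars are SE) of the 29 carriers past the threshold in at least 1 mutant (y axis), for Fz4-/-, Lrp5-/- and Norrin KO, with filled points for an adjusted p under 0.05. Slco2a1 stands at the top with 4.02 to 4.88 and Slco1c1 at the bottom with −5.96 to −6.20.

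The promoters of 5 carriers with large changes are printed because 4 of these genes fell together and 1 rose. They come from RefSeq on GRCm38.p6, 300 bases each, 5′ to 3′ on the strand of the gene, and run from 250 bases before the start of transcription to 50 after it. Capitals mark a match to any of 4 motifs on either strand. These were the TCF/LEF core CTTTGA (a form of the motif bound by the partners of beta-catenin) and the SOX core ACAAT. The others were the ETS core CAGGAA and the E-box CACGTG. Slco1c1 is chr6:141524104-141524403 on the plus strand, Slc19a3 chr1:83038399-83038698 on the minus strand, Slc22a8 chr19:8592932-8593231 on the plus strand, Slco1a4 chr6:141856171-141856470 on the minus strand and Slco2a1 chr9:103008237-103008536 on the plus strand.
Slco1c1: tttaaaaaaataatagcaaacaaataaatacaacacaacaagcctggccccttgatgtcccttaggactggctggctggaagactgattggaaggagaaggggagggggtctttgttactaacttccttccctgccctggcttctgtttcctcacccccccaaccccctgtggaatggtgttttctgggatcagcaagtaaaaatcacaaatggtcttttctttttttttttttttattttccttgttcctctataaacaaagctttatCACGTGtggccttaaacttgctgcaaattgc
Slc19a3: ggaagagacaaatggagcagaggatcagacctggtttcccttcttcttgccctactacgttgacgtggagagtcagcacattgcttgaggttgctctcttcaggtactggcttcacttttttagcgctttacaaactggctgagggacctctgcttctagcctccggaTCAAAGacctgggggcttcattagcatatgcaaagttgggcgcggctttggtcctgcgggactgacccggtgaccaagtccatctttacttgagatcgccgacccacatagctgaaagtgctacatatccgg
Slc22a8: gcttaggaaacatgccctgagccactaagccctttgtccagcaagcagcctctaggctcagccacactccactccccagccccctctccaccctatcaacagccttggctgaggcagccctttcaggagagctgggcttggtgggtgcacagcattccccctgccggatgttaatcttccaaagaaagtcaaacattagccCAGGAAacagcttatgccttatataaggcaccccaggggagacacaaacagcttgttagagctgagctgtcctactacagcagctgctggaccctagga
Slco1a4: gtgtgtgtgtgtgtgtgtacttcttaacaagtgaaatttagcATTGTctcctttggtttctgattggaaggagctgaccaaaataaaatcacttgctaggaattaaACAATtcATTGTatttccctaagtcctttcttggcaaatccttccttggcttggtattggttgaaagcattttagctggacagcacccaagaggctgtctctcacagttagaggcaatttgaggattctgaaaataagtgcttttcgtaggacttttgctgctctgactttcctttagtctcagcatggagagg
Slco2a1: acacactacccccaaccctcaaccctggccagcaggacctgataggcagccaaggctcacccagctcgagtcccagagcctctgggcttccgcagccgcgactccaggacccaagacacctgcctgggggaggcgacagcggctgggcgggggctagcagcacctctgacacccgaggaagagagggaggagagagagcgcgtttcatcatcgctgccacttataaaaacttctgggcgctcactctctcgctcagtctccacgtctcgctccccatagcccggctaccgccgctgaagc

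Of these windows the one of Slc19a3 held the TCF/LEF core as CTTTGA, at −82 from the start and on the other strand. Other forms of this motif, such as the ctttgtt in the Slco1c1 window, were not searched. The E-box in Slco1c1, the ETS core in Slc22a8 and 3 SOX cores in Slco1a4 were the other matches, and Slco2a1 held none of the 4. Promoters were found for 63 of the 73 carriers, 83 windows in all. The TCF/LEF core was in 18.1% of them, against 16% of 32851 mouse promoters of the same length, the SOX core in 26.5% against 31%, the ETS core in 33.7% against 30.6% and the E-box in 8.43% against 7.15%. A match describes the letters only.

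Among hormone carriers, the fall was largest for Slco1c1, which carries thyroxine with high affinity. It had 6.68, 6.82 and 7.64 in Fz4-/-, 6.16, 7.73 and 6.71 in Lrp5-/- and 6.63, 6.62 and 7.17 in Norrin KO, against 12.93 to 13.10 in wild type (median 12.98). All 9 mutant arrays lay more than 5 units under the lowest wild-type array, and the mutant groups overlapped each other. The change was −5.96 ± 0.28 (SE) in Fz4-/-, −6.14 ± 0.28 in Lrp5-/- and −6.20 ± 0.28 in Norrin KO (limma, adjusted p = 3.47e-09, 3.05e-09 and 2.21e-09). Slco1a4, a carrier of bile salts, steroid conjugates and digoxin in rodents, had 9.86, 10.15 and 9.58 in Fz4-/-, 10.88, 11.39 and 11.02 in Lrp5-/- and 9.64, 9.87 and 9.98 in Norrin KO, against 12.55 to 12.93 in wild type (median 12.86). It fell in all 3 mutants (−2.95, −1.72 and −2.98 ± 0.16), and the Lrp5-/- arrays lay between the other mutants and wild type. Slco2b1, which takes up steroid sulfates, had 9.60, 9.90 and 9.84 in Fz4-/-, 10.32, 10.88 and 10.42 in Lrp5-/- and 9.77, 9.77 and 9.68 in Norrin KO, against 11.17 to 11.73 in wild type (median 11.48). The groups did not overlap wild type, and the mean change was −1.44 ± 0.11 (limma, adjusted p = 3.41e-07). In Lrp5-/- the change was −0.93, and without the 3 arrays that stood apart −0.61 (adjusted p = 0.192), in a fit with 1 Lrp5-/- array.

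Slco2a1, which takes up prostaglandins, had 10.54, 9.99 and 10.80 in Fz4-/-, 10.52, 10.48 and 10.08 in Lrp5-/- and 11.47, 11.02 and 11.19 in Norrin KO, against 5.62 to 6.98 in wild type (median 6.26). Every mutant array lay above every wild-type array by at least 3 units. The change was 4.10 ± 0.26 in Fz4-/-, 4.02 ± 0.26 in Lrp5-/- and 4.88 ± 0.26 in Norrin KO (limma, adjusted p = 7.23e-08, 1.39e-07 and 1.18e-08). All 4 probe sets of the gene rose, by 2.09 to 5.22 over the mutants. Slco3a1, a widely expressed relative, rose by 0.76 ± 0.15 in Fz4-/- (adjusted p = 0.00258) and 1.05 ± 0.15 in Norrin KO (0.000162), and had 0.42 ± 0.15 in Lrp5-/- (0.0873). Its 2 dimmer probe sets did pass in Lrp5-/-, with 0.82 and 0.70 (adjusted p = 0.0164 and 0.0382).

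The bile acid family Slc10 had 1 gene that rose and 1 that fell over the mutants. Slc10a6, a carrier of sulfated steroids, had 5.88, 5.32 and 6.79 in Fz4-/-, 5.16, 5.74 and 4.81 in Lrp5-/- and 8.52, 8.53 and 7.93 in Norrin KO, against 4.40 to 5.13 in wild type (median 4.97). Norrin KO stood above all other arrays, with a change of 3.45 ± 0.29 (adjusted p = 1.05e-06), and Lrp5-/- overlapped wild type. The rise of 1.11 ± 0.29 in Fz4-/- (adjusted p = 0.0153) was 0.72 without Fz4-/- 3 and no longer passed (0.125). Slc10a1, which takes up bile salts in liver, had 8.59, 8.51 and 8.41 in Fz4-/-, 8.79, 8.54 and 8.80 in Lrp5-/- and 5.96, 9.17 and 7.85 in Norrin KO, against 9.13 to 9.86 in wild type (median 9.60). It fell by 1.85 ± 0.46 in Norrin KO (adjusted p = 0.00848), where the groups overlapped. Without Norrin KO 1, the array with the large actin gap, the Norrin KO change was −1.0 (0.0258); the part of the gap in this result was not tested further. With the replicate number as a block in Fz4-/- and wild type only, Slc10a1 passed in Fz4-/- (−0.97, limma, adjusted p = 0.0303). With matched arrays it passed in Lrp5-/- (−0.84, adjusted p = 0.0179, against −0.80 and 0.318 without the block). With the replicate block over all groups the Norrin KO call ended (−1.81, adjusted p = 0.0531), and so did the call over the mutants (−1.18, 0.124). Over the mutants its call ended without the 3 arrays that stood apart (−1.26, adjusted p = 0.0696). Slc10a7, a family member without a settled substrate, rose in Norrin KO by 0.63 ± 0.15 (0.00618). Its 3 other probe sets had 0.21 to 0.28 there and did not pass, and the mean of all its probe sets had 0.34 (adjusted p = 0.0771).

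Among vitamin carriers the fall was largest for Slc19a3, a thiamine carrier. It had 5.62, 5.29 and 6.01 in Fz4-/-, 4.51, 6.00 and 5.10 in Lrp5-/- and 4.45, 5.65 and 5.79 in Norrin KO, against 10.82 to 11.22 in wild type (median 11.07). No mutant array came within 4 units of wild type, and the changes were −5.40, −5.84 and −5.74 ± 0.32 (limma, adjusted p = 2.4e-08, 1.75e-08 and 1.35e-08). The mutant signals lie near the array medians, where the size of a change on RMA values is limited from below. Its paralog Slc19a2, also a thiamine carrier, went the other way: it had 9.38, 9.04 and 8.91 in Fz4-/-, 9.32, 8.69 and 9.25 in Lrp5-/- and 8.71, 8.82 and 8.12 in Norrin KO, against 7.38 to 9.15 in wild type (median 7.97). The groups overlapped at wild type 3, the array with 9.15. It rose by 1.10 ± 0.31 in Fz4-/- (adjusted p = 0.026) and 1.07 ± 0.31 in Lrp5-/- (0.0366), and had 0.53 ± 0.31 in Norrin KO (0.231). The Fz4-/- call ended with the replicate block in Fz4-/- and wild type only (0.73, adjusted p = 0.21) and over all groups (0.236). It also ended without Fz4-/- 1, 2 or 3 or wild type 6 (0.0528 to 0.121). The Lrp5-/- call ended without Lrp5-/- 1 or 3 or wild type 1, 2, 4, 5 or 6 (0.0534 to 0.156). The call over the mutants ended without the 3 arrays that stood apart (0.64, adjusted p = 0.116).

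Slc19a1, the reduced folate carrier, had 7.13, 6.91 and 6.88 in Fz4-/-, 6.39, 6.84 and 6.81 in Lrp5-/- and 6.66, 6.55 and 7.46 in Norrin KO, against 8.80 to 9.77 in wild type (median 9.35). The mutants overlapped each other and none overlapped wild type, with changes of −2.34, −2.63 and −2.42 ± 0.23 (limma, adjusted p = 5.41e-06, 2.18e-06 and 3.38e-06). Its 3 probe sets fell by 2.05 to 2.47 over the mutants. Slc46a1, the proton-coupled folate carrier, rose in Norrin KO by 0.87 ± 0.27 (adjusted p = 0.0313) and had 0.37 and 0.31 ± 0.27 in Fz4-/- and Lrp5-/- (0.405 and 0.582). The Norrin KO call ended without Norrin KO 1 or 3 or wild type 3 (0.0524 to 0.119). Slc46a3, a lysosomal relative, had 9.17 to 9.93 on the mutant arrays against 10.04 to 10.55 in wild type, and it fell in Fz4-/-, Lrp5-/- and Norrin KO (−0.88, −1.07 and −0.59 ± 0.14).

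Slc52a3, a riboflavin carrier, had 8.79, 8.32 and 8.74 in Fz4-/-, 9.27, 9.69 and 9.35 in Lrp5-/- and 10.24, 9.96 and 9.68 in Norrin KO, against 11.27 to 11.85 in wild type (median 11.53). It fell in all 3 (−2.95, −2.13 and −1.61 ± 0.18), limma adjusted p = 2.85e-08, 1.23e-06 and 1.32e-05, and Fz4-/- lay below both other mutants. Slc23a2, a sodium-coupled carrier of ascorbate, had 9.78, 9.76 and 9.86 in Fz4-/-, 9.92, 9.39 and 9.35 in Lrp5-/- and 9.28, 9.43 and 9.59 in Norrin KO, against 7.61 to 8.62 in wild type (median 8.15). It rose in all 3 mutants, by 1.69, 1.45 and 1.33 ± 0.20, with no overlap with wild type. The dimmer probe set of the gene had 0.18 over the mutants and did not pass. Its paralog Slc23a1 had −0.38 over the mutants (adjusted p = 0.415).

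**Figure D2:**
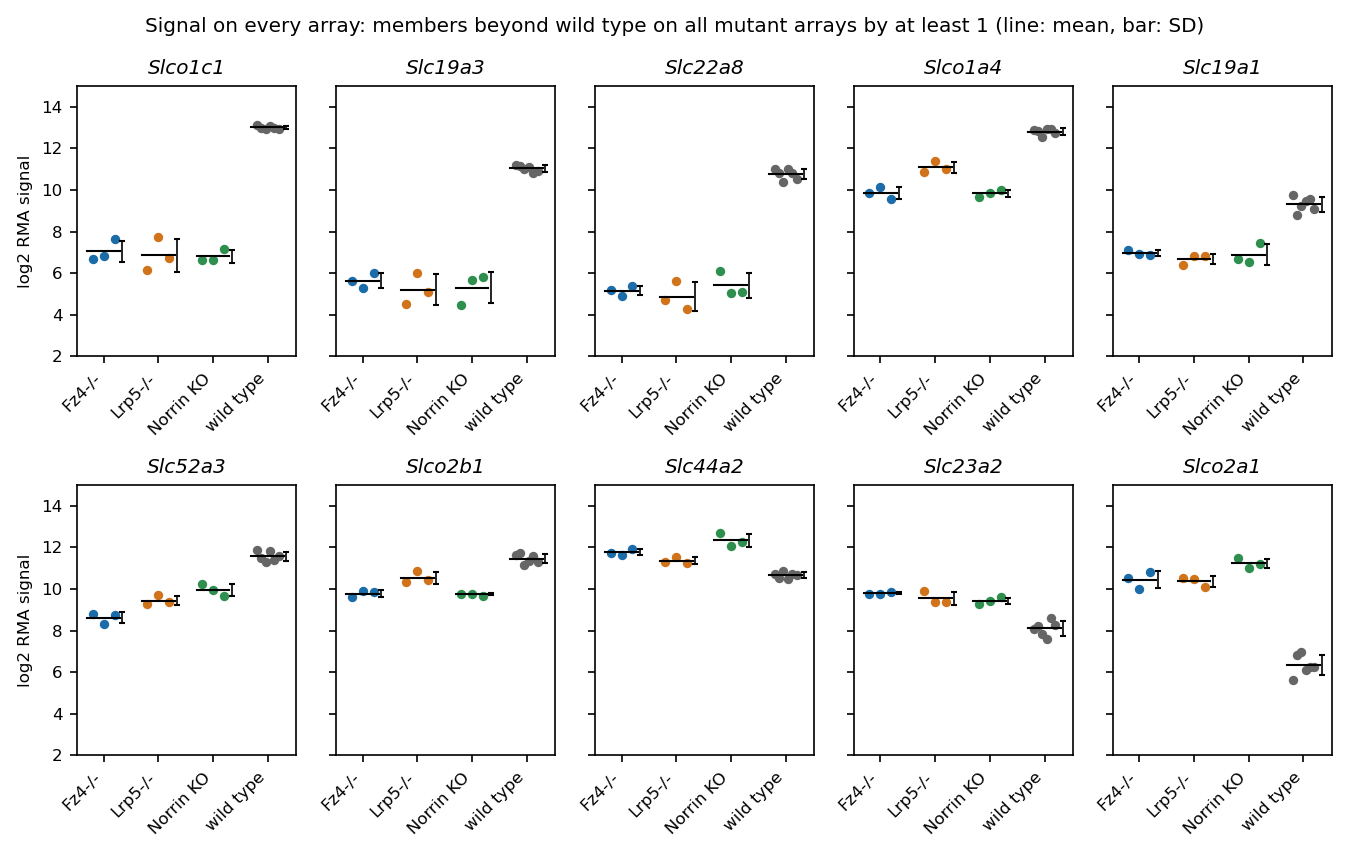
Log2 signal (y axis) on each array (points) of the 10 carriers that changed by at least 1 over the mutants with all 9 mutant arrays beyond wild type, in Fz4-/-, Lrp5-/-, Norrin KO and wild type (x axis), with lines for the means and bars for the SD. Slco1c1, Slc19a3 and Slc22a8 lie at 4.25 to 7.73 on the mutant arrays and at 10.38 to 13.10 in wild type, and Slco2a1 lies at 9.99 to 11.47 on the mutant arrays and at 5.62 to 6.98 in wild type.

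Of the 21 Slc22 genes, which carry organic anions, cations and carnitine, 3 rose, 2 fell and 16 did not pass over the mutants. Slc22a8 (Oat3), an organic anion exchanger, had 5.17, 4.92 and 5.36 in Fz4-/-, 4.70, 5.62 and 4.25 in Lrp5-/- and 6.12, 5.05 and 5.09 in Norrin KO, against 10.38 to 11.01 in wild type (median 10.83). All 9 mutant arrays lay more than 4 units below wild type, with changes of −5.61, −5.91 and −5.35 ± 0.29 (limma, adjusted p = 6.36e-09, 5.76e-09 and 1.04e-08). Its second probe set fell by 6.17. Slc22a15 had 8.99, 8.65 and 8.95 in Fz4-/-, 7.86, 8.03 and 8.26 in Lrp5-/- and 8.0, 8.63 and 9.19 in Norrin KO, against 7.24 to 7.77 in wild type (median 7.64). It rose in Fz4-/- (1.28 ± 0.21, adjusted p = 0.000591) and Norrin KO (1.02 ± 0.21, 0.00256), and had 0.47 ± 0.21 in Lrp5-/- (0.182), which passed with matched arrays as a block (0.54, adjusted p = 0.0359). Its other probe set had 0.24 over the mutants and did not pass.

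On chromosome 11, Slc22a21 lies between Slc22a5 and Slc22a4. Slc22a5, the main carnitine carrier, fell by 0.58 ± 0.14 in Fz4-/- (adjusted p = 0.00942) and 0.54 ± 0.14 in Norrin KO (0.0103), and had −0.35 ± 0.14 in Lrp5-/- (0.118). These calls ended without Fz4-/- 3 (0.0571) and without Norrin KO 2 (0.0609). The dimmer probe set of Slc22a5 had −0.16 in Fz4-/- and −0.82 in Norrin KO (limma, adjusted p = 0.795 and 0.083). With the mean of its probe sets the Fz4-/- call ended (−0.37, adjusted p = 0.209). Slc22a4, which carries ergothioneine, had 8.03, 7.09 and 9.10 in Fz4-/-, 7.04, 6.60 and 6.87 in Lrp5-/- and 7.46, 6.20 and 5.76 in Norrin KO, against 5.60 to 6.58 in wild type (median 5.91). Its rise in Fz4-/- was 2.06 ± 0.41 (adjusted p = 0.00263), with no overlap with wild type, and the values in Lrp5-/- and Norrin KO were 0.83 and 0.47 ± 0.41 (0.23 and 0.434). Over the mutants it rose by 1.12 ± 0.31, a call that ended without the 3 arrays that stood apart (0.96, adjusted p = 0.111). Slc22a21, a carnitine carrier of mice, fell in Norrin KO by 0.99 ± 0.33 (adjusted p = 0.0385), which ended without any of the 3 Norrin KO arrays, Fz4-/- 1 or wild type 1 or 3 (0.05 to 0.109).

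The other Slc22 genes with a call were less steady. Slc22a23 rose by 0.87 ± 0.25 in Fz4-/- (adjusted p = 0.0294) and 1.47 ± 0.25 in Norrin KO (0.000711). The Fz4-/- call ended with the replicate block in Fz4-/- and wild type only (0.84, adjusted p = 0.145) and over all groups (0.0985). It also ended without Fz4-/- 3 (0.41, 0.183) and without wild type 1 or 5 (0.0587 and 0.0507). Slc22a18 fell by 0.66 ± 0.21 in Fz4-/- (adjusted p = 0.0413), which ended without Fz4-/- 1, 2 or 3, Lrp5-/- 3 or wild type 2 or 6 (0.0552 to 0.18). Slc22a30 fell by 1.08 ± 0.37 in Norrin KO (adjusted p = 0.0447), which ended without any of 11 arrays: Fz4-/- 1 to 3, Lrp5-/- 3, Norrin KO 1 to 3 and wild type 1, 2, 4 and 6 (0.0501 to 0.156). Both Slc22a18 and Slc22a30 had group means under the array medians in all 4 groups.

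Several carriers lie close together on a chromosome, and genes that are not among the carriers may lie between them. RefSeq places 6 of the Slco genes close together on chromosome 6, in the order Slco1c1, Slco1b2, Slco1a4, Slco1a1, Slco1a6 and Slco1a5. Slco1c1 and Slco1a4 fell, and the other 4 were dim in every group, where a fall could hardly be seen, with −0.14 to −0.52 over the mutants and no call. Of the 7 Slc22 genes close together on chromosome 19, Slc22a8 fell by 5.62 over the mutants. The carriers on either side of it, Slc22a30 and Slc22a6 (Oat1), had −0.58 and −0.09 (limma, adjusted p = 0.152 and 0.602). Both were dim in all groups, with means of 4.13 and 3.44 in wild type.

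**Figure D3:**
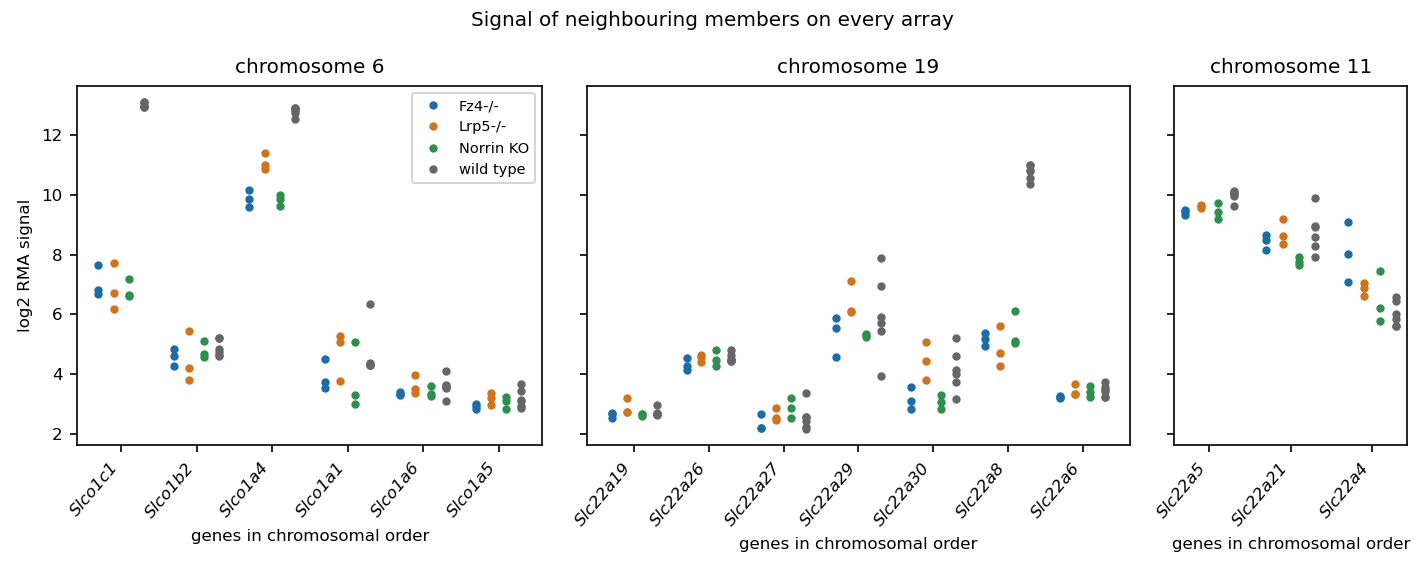
Log2 signal (y axis) on each array (points) of carriers that lie close together on chromosomes 6, 19 and 11, in chromosomal order (x axis), in Fz4-/-, Lrp5-/-, Norrin KO and wild type. Slco1c1, Slco1a4 and Slc22a8 show wild-type points far above the mutant points, and most of the other genes of the first pair of panels lie in the lower part of the plot in every group.

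Nucleoside carriers of the Slc29 family had 1 rise and 1 fall over the mutants. Slc29a1 (Ent1), the main equilibrative carrier of adenosine, had 8.59, 8.15 and 8.15 in Fz4-/-, 7.28, 7.79 and 7.96 in Lrp5-/- and 6.41, 7.93 and 8.37 in Norrin KO, against 6.22 to 7.01 in wild type (median 6.72). Norrin KO 1 alone of the mutant arrays lay inside the wild-type range. The change was 1.63 ± 0.33 in Fz4-/- (adjusted p = 0.00298), 1.01 ± 0.33 in Lrp5-/- (0.0608) and 0.90 ± 0.33 in Norrin KO (0.0584). With matched arrays as a block the Lrp5-/- value was 1.21 (limma, adjusted p = 0.00109). With the replicate block over all groups the call over the mutants ended (0.98, adjusted p = 0.0814, against 1.18 without the block). Slc29a4, a carrier of monoamines, fell in Lrp5-/- by 1.28 ± 0.23 (adjusted p = 0.00188), with 4.81, 5.10 and 4.64 there against 5.69 to 6.48 in wild type, and had −0.68 ± 0.23 in Fz4-/- (0.0611) and 0.10 ± 0.23 in Norrin KO (0.796). Without the 3 arrays that stood apart the Lrp5-/- value was −1.06 (adjusted p = 0.195) and that over the mutants −0.57 (0.0915); that fit has 1 Lrp5-/- array. Another probe set of Slc29a4 had −0.96 in Lrp5-/- and −0.67 over the mutants and did not pass (limma, adjusted p = 0.1015 and 0.0798). With the replicate block over all groups the Slc29a4 call over the mutants ended (−0.52, adjusted p = 0.234). Slc29a2 and the sodium-coupled Slc28a3 were dim in all groups.

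For choline and fatty acids, Slc44a2, a choline carrier-like protein, had 11.73, 11.64 and 11.92 in Fz4-/-, 11.30, 11.56 and 11.23 in Lrp5-/- and 12.70, 12.06 and 12.24 in Norrin KO, against 10.47 to 10.87 in wild type (median 10.71). It rose in all 3 mutants, by 1.09, 0.69 and 1.67 ± 0.15, with no overlap with wild type, and all 3 of its probe sets rose over the mutants. In Lrp5-/- the call ended without the 3 arrays that stood apart (0.85, adjusted p = 0.0742). Slc44a1, the choline carrier of the same family, had −0.23 over the mutants (adjusted p = 0.09). Slc27a3, of the fatty acid transport protein family, rose by 1.41 ± 0.25 in Fz4-/- (adjusted p = 0.00105) and 1.52 ± 0.25 in Norrin KO (0.000475), and had 0.57 ± 0.25 in Lrp5-/- (0.168), which passed with matched arrays as a block (0.59, adjusted p = 0.0257). Slc27a1 and Slc27a4 had −0.24 and −0.14 over the mutants and did not pass. A dimmer probe set of Slc27a1 did pass as lower in Fz4-/- (−0.41, limma, adjusted p = 0.0341).

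The Slc13 family carries sulfate and the acids of the citrate cycle. Slc13a4, a sulfate carrier, had 6.55, 6.22 and 7.43 in Fz4-/-, 4.85, 5.47 and 5.03 in Lrp5-/- and 7.75, 8.68 and 8.27 in Norrin KO, against 4.17 to 5.64 in wild type (median 4.80). Fz4-/- and Norrin KO lay above wild type without overlap, with 1.80 ± 0.33 (adjusted p = 0.00132) and 3.30 ± 0.33 (5.15e-06), and Lrp5-/- had 0.19 ± 0.33 (0.819). With the replicate number as a block in Fz4-/- and wild type only, the Fz4-/- change was 1.88 (limma, adjusted p = 0.0634). The Fz4-/- call passed under the other settings run for it. Slc13a3, a carrier of dicarboxylates, rose in Norrin KO by 1.19 ± 0.23 (adjusted p = 0.0018), and had 0.41 and 0.19 ± 0.23 in Fz4-/- and Lrp5-/- (0.278 and 0.715). Its rise over the mutants, 0.60 ± 0.17, ended without the 3 arrays that stood apart (adjusted p = 0.0704). The citrate carrier Slc13a5 had 0.08 over the mutants.

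Differences between mutants were tested directly. Between Norrin KO and Lrp5-/-, 10 carriers were higher in Norrin KO (13.7%, against 9.5% of all genes) and 4 lower (5.48%, against 2.43%). Slc13a4 was higher in Norrin KO by 3.12 ± 0.38 (limma, adjusted p = 0.000802) and Slc10a6 by 3.09 ± 0.33 (0.000397). The pools with low Xist outside Norrin KO were Lrp5-/- 1 and 2 and wild type 4 and 5, and there Slc13a4 had 4.85, 5.47, 5.42 and 4.78 and Slc10a6 5.16, 5.74, 4.72 and 4.95, under every Norrin KO array. Slc29a4 was higher by 1.38 ± 0.27 (0.00763), Slc22a23 by 1.25 ± 0.29 (0.0165), Slc10a7 by 0.96 ± 0.17 (0.00541) and Slc44a2 by 0.97 ± 0.17 (0.00532). The last value rests on 1 probe set that can match more than 1 sequence, and without such probe sets it was 0.33 (adjusted p = 0.241). The Slc22a23 call ended without Lrp5-/- 1 (0.0638) or Norrin KO 3 (0.0514).

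Slco1a4 was lower in Norrin KO than in Lrp5-/- (−1.27 ± 0.18, limma, adjusted p = 0.0017), and so was Slco2b1 (−0.80 ± 0.18, 0.013). With the mean of all probe sets of Slco2b1 its difference was −0.47 and did not pass (adjusted p = 0.0846). The other 6 differences lay close to the threshold. Slc13a3 (1.0 ± 0.27, adjusted p = 0.0298) ended without Lrp5-/- 1, 2 or 3 or Norrin KO 1 or 3 (0.0516 to 0.0988). Slco3a1 (0.63 ± 0.17, 0.0337) ended without Lrp5-/- 1 or 3 or any of the 3 Norrin KO arrays (0.0526 to 0.148). Slc10a3 (0.97 ± 0.29, 0.0436) ended without any of 10 arrays (0.0502 to 0.191), the exceptions being Fz4-/- 2 and 3, Lrp5-/- 2, Norrin KO 2 and wild type 4. Slc23a1 (−1.51 ± 0.46, 0.048) ended without any of 10 (0.0532 to 0.194), all but Lrp5-/- 2, Norrin KO 2 and wild type 4, 5 and 6. Slc27a3 (0.95 ± 0.29, 0.0458) ended without any of 11 (0.0507 to 0.188), all but Norrin KO 2 and 3 and wild type 4 and 5, and was 0.57 without Norrin KO 1. Slc22a30 (−1.38 ± 0.43, 0.05) ended without any of 12 (0.0564 to 0.204), all but Lrp5-/- 2 and wild type 3 and 4. Without the 3 arrays that stood apart, 1 of the 14 differences passed, Slco1a4 at −1.56 (adjusted p = 0.0428); that fit has 1 Lrp5-/- array.

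Between Fz4-/- and the other mutants few carriers differed. Slco1a4 was lower in Fz4-/- than in Lrp5-/- (−1.23 ± 0.18, limma, adjusted p = 0.0101). It was the 1 carrier past the threshold (1.37%), where 0.066% of all genes were lower and 0.159% higher. The Slco1a4 call ended without Fz4-/- 3 (0.0769). Against Norrin KO 2 carriers passed (2.74%), both lower in Fz4-/-, where 1.43% of all genes were lower and 0.896% higher. Slc10a6 had −2.33 ± 0.33 and Slc52a3 −1.34 ± 0.20 (adjusted p = 0.0074 each). No carrier passed as higher in Fz4-/- than in Lrp5-/- or Norrin KO in limma. At an unadjusted p under 0.05, 8 were higher than in Lrp5-/- and 2 than in Norrin KO. The share of all genes at that cutoff was not counted, so these counts are not read as a result.

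**Figure D4:**
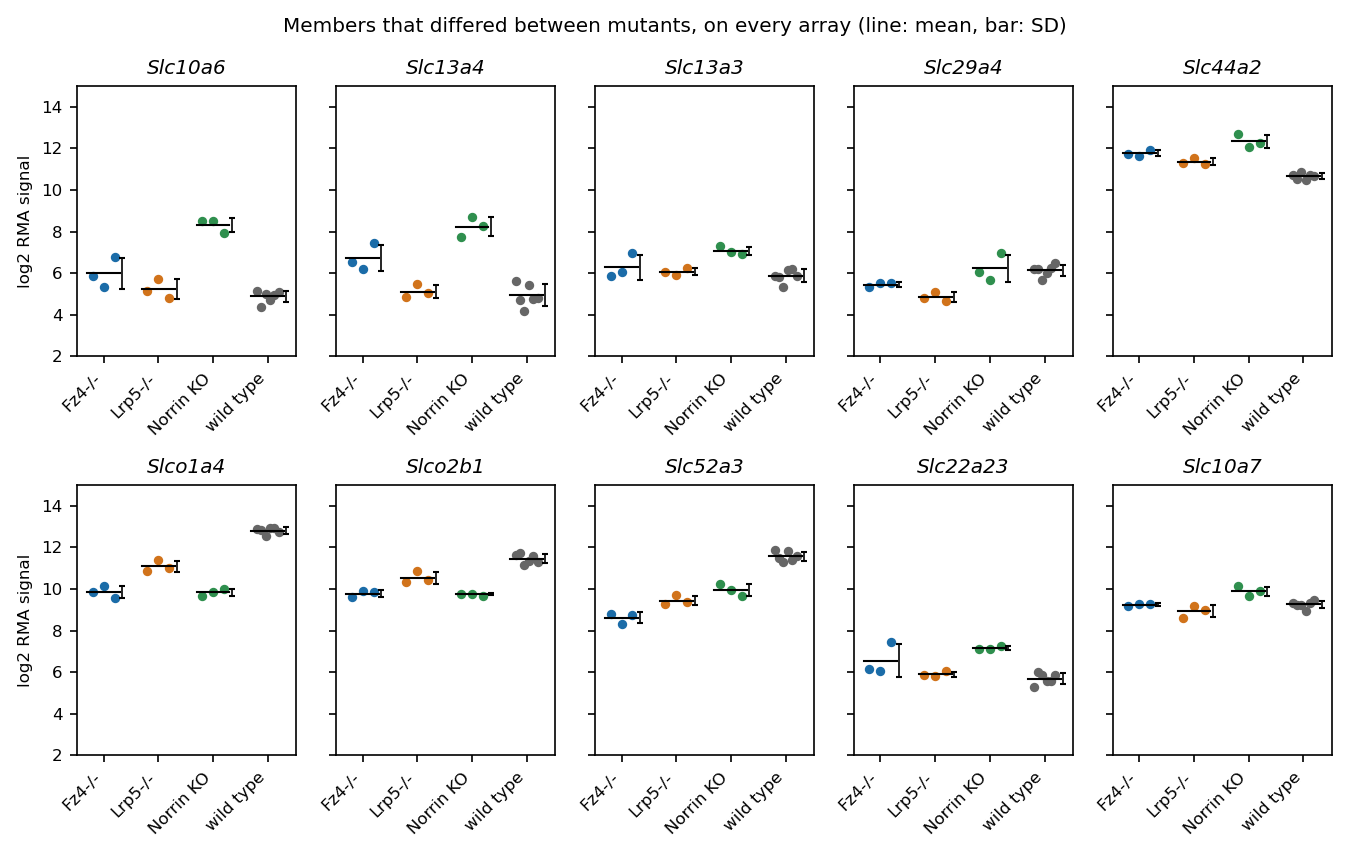
Log2 signal (y axis) on each array (points) of 10 carriers that differed between mutants, in Fz4-/-, Lrp5-/-, Norrin KO and wild type (x axis), with lines for the means and bars for the SD. Norrin KO lies above all other arrays for Slc10a6 (7.93 to 8.53), and Lrp5-/- lies between the other mutants and wild type for Slco1a4 (10.88 to 11.39) and Slco2b1 (10.32 to 10.88).

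Of the 73 carriers 29 (39.7%, against 35.1% of all genes) were dim, with a mean under the array medians in every group, and none of these passed over the mutants in limma (1 at an unadjusted p under 0.05). Among the dim were Slco1b2, Slc10a2, Slc13a2, Slc22a6, Slc22a7, Slc22a12, Slc27a2, Slc27a5 and Slc47a1, carriers known from liver, kidney or gut, which were picked for naming after their values were seen. Other carriers of liver and kidney, such as Slc10a1 and Slc13a3, were not dim. Of the 44 carriers that were not dim, 13 rose (29.5%, against 19.9% of all genes that were not dim) and 11 fell (25%, against 13.7%) over the mutants. The 44 carriers with no call against wild type in any comparison had group means of 2.33 to 12.41 and changes of −0.59 to 0.64 over the mutants. Those not dim included Slc29a3, a lysosomal nucleoside carrier (0.08), Slc33a1, which carries acetyl-CoA (0.08), and Slc22a17 (0.05). A dimmer probe set of Slc29a3 did pass as lower in Norrin KO (−0.59, limma, adjusted p = 0.0115).

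Probe sets of the same gene were compared over the mutants. Of the 126 probe sets, 22 rose (17.5%, against 12.6% of all probe sets) and 17 fell (13.5%, against 8.21%). The 24 carriers with a call had 23 further probe sets, of which 15 passed in the same direction, none in the opposite one and 8 did not pass. Slc19a3 fell by 5.66 and 4.98 on its 2 probe sets. Slco2b1 fell by 1.44 and 1.53 on 2 of its probe sets, and the third had −0.35 (adjusted p = 0.112). Among the 8 without a call, the gap to the brightest probe set of the gene was widest for Slc23a2 (1.49 on the brightest and 0.18 on the other), followed by this one of Slco2b1, Slc19a2 (0.90 and 0.06) and Slc22a15 (0.92 and 0.24). In single mutants, 1 of the 3 probe sets of Slc44a2 passed in none (0.86, 0.71 and 0.58 in Fz4-/-, Lrp5-/- and Norrin KO), and 2 of the 3 other probe sets of Slc13a3 did not pass in Norrin KO (0.19 and 0.28).

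**Figure D5:**
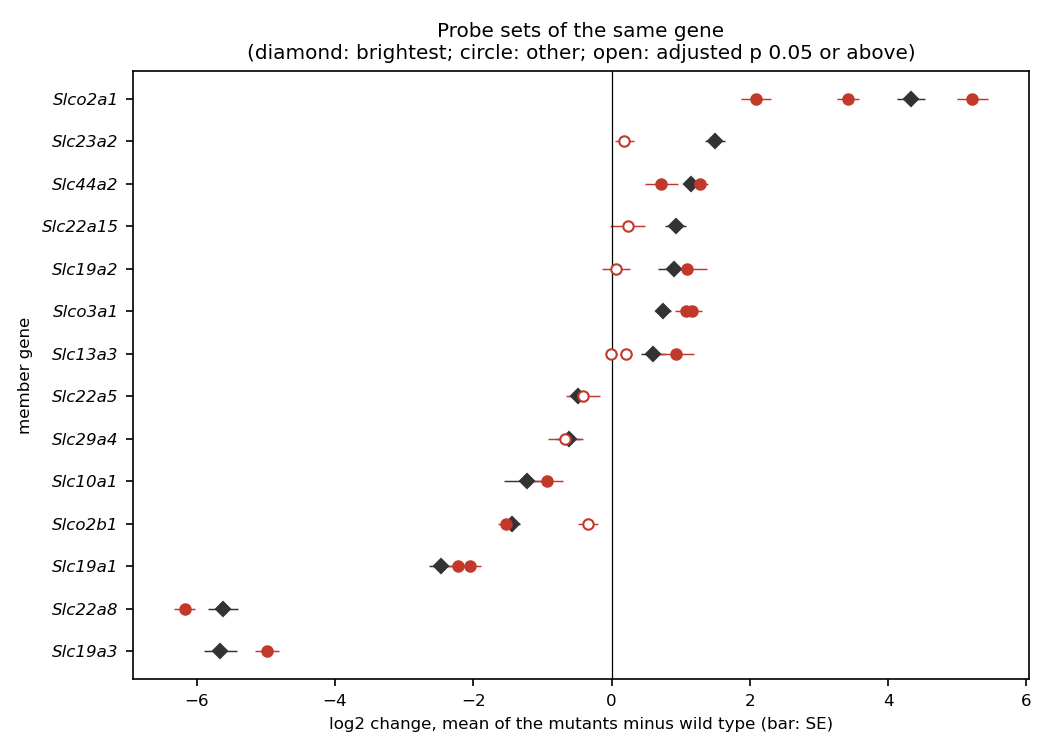
Log2 change (x axis, mean of the mutants minus wild type, bars are SE) on each probe set of the carriers with a call and several probe sets (y axis). Diamonds mark the brightest probe set and circles the others, and open marks an adjusted p of 0.05 or more. The 4 probe sets of Slco2a1 spread from 2.09 to 5.22, and no further probe set with a call lies on the other side of 0 from its diamond.

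Genes that handle the same cargo were counted beside the carriers, over the mean of the mutants, where 14% of all genes rose and 9.91% fell. Of 17 thyroid hormone genes 3 rose and 3 fell, with a median of 0.06. Slc7a5, an amino acid carrier that also takes thyroid hormone, fell by 2.22 ± 0.16, and the thyroid hormone receptor Thra fell by 0.51 ± 0.14. Of 16 genes for thiamine, riboflavin and folate, 2 rose and 5 fell (median 0.03). The folate receptor Folr2 rose by 3.38 ± 0.22, Thtpa, a thiamine triphosphatase, fell by 1.05 ± 0.24, Slc25a32, the mitochondrial folate carrier, changed by −0.94 ± 0.20, and Rfk, which turns riboflavin into its cofactor, by −0.49 ± 0.08.

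Of 17 partners in conjugation and efflux of organic anions and steroids, 3 rose and 6 fell. The efflux pumps Abcb1a, Abcg2, Abcc4 and Abcc6 fell (−1.62, −0.81, −0.84 and −1.85), the sulfotransferase Sult1a1 fell by 1.08, and Abcc3 rose by 1.83. Of 16 genes of nucleoside metabolism 7 rose and 3 fell, among them Upp1 (uridine phosphorylase, 3.62), Cda (cytidine deaminase, 1.91) and Ada (adenosine deaminase, 1.79), which rose, and Adk (adenosine kinase), which fell by 1.05. Of 18 choline and phosphatidylcholine genes 2 rose and 5 fell, with Mfsd2a, a lipid carrier of barrier endothelium, at −4.07. Of 20 fatty acid genes 7 rose and 5 fell, with Gpihbp1, which holds lipoprotein lipase on capillaries, at 7.01 and Lpl at 2.00. Of 15 known targets of beta-catenin 3 rose and 8 fell, among them Axin2 (−2.64) and Lef1 (−1.13).

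Markers of other cells moved with the groups. Of 17 macrophage and microglia markers 11 rose and none fell over the mutants (median 0.68), and their summed signals were 35820 to 47670 in Fz4-/-, 29880 to 41180 in Lrp5-/- and 35620 to 51170 in Norrin KO, against 16020 to 36030 in wild type. Folr2, Slco2b1 and Slc46a1 are also made by macrophages, and the part of these cells in their values was not tested. Of 13 pericyte and smooth muscle markers 3 rose and 2 fell. Their sums were 49370 to 53450 in Fz4-/-, 45900 to 57190 in Lrp5-/-, 39370 to 45760 in Norrin KO and 46510 to 54840 in wild type. Of 14 Müller glia and astrocyte markers 2 rose and 2 fell. Their sums were 39000 to 46760 in Fz4-/-, 43740 to 51800 in Lrp5-/-, 35230 to 39410 in Norrin KO and 35090 to 43780 in wild type. Of 13 photoreceptor markers 1 rose. In Lrp5-/- 4 photoreceptor markers rose (median 1.04), and their sums were 2077 to 4469 there against 1116 to 1766 in wild type; 4 were lower in Norrin KO than in Lrp5-/- (median −0.88). Of 14 markers of pigment epithelium and melanocytes 3 rose over the mutants and 4 in Norrin KO. Of 4 red cell genes 2 fell over the mutants, and their sums were 364 to 656 in Fz4-/-, 988 to 1172 in Lrp5-/- and 961 to 1430 in Norrin KO, against 1941 to 2873 in wild type, with no overlap. The part of these cells in the results was not tested. The 15 endothelial markers summed to 69030 to 71950 in Fz4-/-, 64190 to 70180 in Lrp5-/- and 59440 to 70550 in Norrin KO, against 68300 to 78390 in wild type, none of them under the array median in every array of a group. Of these 3 rose and 6 fell, and Pecam1 had 0.07 (adjusted p = 0.743).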

How the data were processed

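The table held log2 signals for 45101 probe sets on 15 arrays, computed by the authors with RMA (named in the submitters' processing notes). This method removes background, normalizes between arrays and combines probes; low signals are compressed, and scanner signals were not used here. RMA settings and array batches were not stated in the labels. Probe sets with several gene symbols (932) or none (9211) were left out, 3 of them with symbols of the kind chosen here. Each gene was represented by its brightest probe set on average, with no filter on dim genes.

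All 15 arrays were fitted with 4 group means in limma 3.58.1 under R 4.3.3, and p-values were adjusted by the Benjamini and Hochberg method over the 18194 genes of each contrast (over 34958 for probe sets), with a threshold of 0.05. On data simulated for the average mutant change from wild type, 98% of genes changed by 2 on the log2 scale and 74% of those changed by 1 passed. The simulation gave each array independent noise and changed few genes. In the data 23.9% of all genes passed over the mutants and some arrays deviated together, so the recovery there may differ. It does not apply to the other comparisons, which have fewer arrays. The carriers, the gene lists and the arrays said to stand apart were chosen with earlier results of these data known. By the rule for named genes, every array is given for carriers beyond wild type on all 9 mutant arrays by at least 1, single-mutant changes for others past the threshold by at least 0.5, and differences for those that differed between mutants. Some other carriers are also given by array; these were chosen after their values were seen. Replicate numbers were taken to pair Fz4-/- with wild type, because deviations of same-numbered arrays correlated at 0.28 to 0.34 in all 3 pairs; in the other 15 pairs they correlated at −0.24 to 0.16. Lrp5-/- 1 to 3 were also matched with wild type 4 to 6, from earlier work on these data and not from the labels. Alternatives were another normalization, filter, choice of probe sets, variance model, choice of arrays, blocks and leaving out each array. No set test was run.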

Additional observations from a re-analysis of the deposited data

Results flagged for a closer look

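Among 31 carriers with a named result, 3 had a wild-type array far from the other 5, by the gap to its nearest neighbour as a share of the range; chance gives about 1 such group in 20. Slc22a18 was 5.98 on wild type 5 against 5.25 on the next array (share 0.682). Slc10a3 was 7.01 on wild type 4 against 7.56 on the next (share 0.672), and Slc22a5 was 9.64 on wild type 4 against 9.96 on the next (share 0.634).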

How the results depend on the processing

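Over the 7 comparisons there were 100 calls of single carriers; 61 passed under each setting run for them (7 to 11 settings, by comparison and gene) and with each array left out, 39 were lost under at least 1, and none reversed. Shares of all genes called are given in brackets, since they move with the counts. With each array left out in turn the counts for Fz4-/- were 9 to 12 higher and 8 to 12 lower (10.5% to 18.4%, against 16.7%). For Lrp5-/- they were 3 to 5 and 9 to 10 (8.34% to 14.6%, against 12.9%). For Norrin KO they were 12 and 10 to 13 (18.6% to 27.4%, against 25.8%). Over the mutants they were 13 to 14 and 11 to 12 (20.5% to 24.9%, against 23.9%). They were 0 to 1 for Fz4-/- against Lrp5-/- (0 without Fz4-/- 3, at 0.0605%), 2 to 6 for Fz4-/- against Norrin KO (6 without Norrin KO 2, 4 without wild type 4, at 4.2% and 3.28%, against 2.32%) and 7 to 16 for Norrin KO against Lrp5-/- (7 without Lrp5-/- 1, 8 without Lrp5-/- 3, 9 without Norrin KO 1, 8 without Norrin KO 3, at 3.67%, 5.42%, 5.69% and 7%). With only genes above the median gene, which leaves 26 carriers, the higher counts were 7 in Fz4-/- (29.1% of genes called, against 16.7% with all genes), 7 in Norrin KO (39.8%, against 25.8%) and 7 over the mutants (39.4%, against 23.9%), and Norrin KO against Lrp5-/- had 7 (22.1%, against 11.9%). With the replicate block in Fz4-/- and wild type alone, 9 carriers were higher and 13 lower in Fz4-/- (17.8%, against 16.7%). With the block over all groups, Lrp5-/- had 2 higher (7.57%, against 12.9%). Fz4-/- against Lrp5-/- then had 0 (0.104%, against 0.225%) and Fz4-/- against Norrin KO 1 (0.335%). Without Lrp5-/- 1, Lrp5-/- 3 and wild type 4 these counts were 2 (4.06%), 0 (0.0495%) and 4 (4.09%), and Norrin KO against Lrp5-/- had 1 (0.154%). With Lrp5-/- 1 to 3 matched to wild type 4 to 6 as a block Lrp5-/- had 7 higher (17.4%). With only the groups compared, Fz4-/- against Lrp5-/- had 0 (0.0275%), Fz4-/- against Norrin KO 0 (0.104%) and Norrin KO against Lrp5-/- 4 (1.09%). Fz4-/- against Norrin KO had 5 after quantile normalization (3.62%) and 4 with trended robust variances (3.53%). The causes of these shifts were not tested beyond the fewer genes or arrays that some settings hold. Signals near the bottom of the scale limit the size of any fall.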

Other observations

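Wild type 4 was the highest of the 6 wild-type arrays for 25 of the 73 carriers (34.2%, against 21.1% of all genes). With Lrp5-/- 1 it held the high signals of several carriers that are dim or near the array median elsewhere, named here after their values were seen. Slco6c1, of a Slco branch known from testis, had 6.60 on Lrp5-/- 1 and 6.77 on wild type 4, against 2.79 to 4.92 on the other 13 arrays. Slc22a22, a prostaglandin carrier of mouse kidney, had 7.25 and 7.38 on these arrays, and the kidney sulfate carrier Slc13a1 had 5.31 and 5.67. With the replicate block in Fz4-/- and wild type, Slco6c1 (−1.37, adjusted p = 0.0308) and Slc13a1 (−0.74, adjusted p = 0.0161) passed as lower in Fz4-/-; without it they had −1.64 (0.0758) and −0.96 (0.278).

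Of 3 probe sets whose symbols fit the rule but name 2 genes each, the one for Slc22a30 and Slc22a29 ranged from 4.54 to 7.75 on the mutant arrays and from 3.11 to 8.68 in wild type, highest on wild type 4. The ones for Slc10a4 and Slc28a2 with a relative each lay under 4 on all 15 arrays. Of 16 retinoid genes 2 rose and 2 fell over the mutants, with Stra6, the vitamin A carrier that takes up retinol from its binding protein, at −4.13 and Rdh10, a retinol dehydrogenase, at 0.94.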
